A study of Mus musculus with 9 samples.

Results

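A set of 9 genes that restrain or mark strongly stimulated CD8+ T cells was followed across 3 culture conditions: the receptor genes Ctla4, Pdcd1, Lag3, Havcr2, Tigit and Cd160, the surface ligand gene Cd200, the ectoenzyme gene Cd38 and the transcription factor gene Tox. They were found by matching symbols to the mouse Ensembl identifiers of the count table. All 9 of 9 were present among 53679 genes, and all 9 passed the filter on low counts, as did 15348 genes in all. The study sequenced total RNA of CD8+ T cells from C57BL/6 mice activated for 3 days in culture, to compare interleukin-22 secreting cells and coenzyme A (CoA) treated cells with cells activated alone. Its 3 groups were Tc22 cells (no agent), Tc0 cells with CoA and untreated Tc0 cells. Each had 3 libraries, 1 from each of the same 3 mice, numbered 715, 725 and 728. In the field, Tc0 denotes CD8+ T cells activated without polarising cytokines. The sources used here do not give the cytokines of the Tc22 cultures, the CoA dose or the age and sex of the mice.

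Inhibitory receptors appear on T cells after antigen receptor signalling and dampen it when they meet their ligands on other cells. Ctla4 competes with the costimulator CD28 for CD80 and CD86, PD-1 (Pdcd1) recruits phosphatases after binding PD-L1 or PD-L2, and LAG-3 binds MHC class II. Brief expression accompanies normal activation, whereas their lasting joint expression, with TOX and CD38, marks exhausted CD8+ T cells in tumours and chronic infection. CoA, the acyl carrier that cells build from pantothenate, was an addition to the culture medium here.

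Gene counts summed to between 21841034 and 36254631 per library. Cd8a, the defining marker, averaged 729 CPM (counts scaled by library size) in Tc22 cells, 758 CPM in Tc0 cells with CoA and 788 CPM in Tc0 cells. Il22 was higher in Tc22 than in Tc0 cells (log2 fold change 2.87, adjusted p = 0.00300 by edgeR) and higher still with CoA (5.18, adjusted p = 0.000162). The Tc0 library of mouse 728 was the deepest and had the lowest share of mitochondrial counts of all 9 libraries, 2.003%, against 3.33% to 3.97% in the other Tc0 libraries. Low shares also occurred in Tc22 of mice 725 (2.007%) and 728 (2.30%), and CoA of mouse 728 had 2.66%. Among markers of other cells, the 5 listed for CD4+ and regulatory T cells summed to 21.9 to 30.1 CPM in Tc22, 27.3 to 31.6 CPM in CoA and 13.5 to 22.6 CPM in Tc0 libraries. Foxp3, which defines regulatory T cells, averaged 0.360, 0.454 and 0.413 CPM in those groups and passed in no comparison. Other genes of that list did: Cd4 was higher in Tc22 than in Tc0 (0.983 CPM, against 0.342 CPM; log2 fold change 1.59, adjusted p = 0.0484 by edgeR), and Ikzf4 (1.27, 0.00854) and Cd40lg (1.13, 0.0204) were higher with CoA than in Tc0. The 6 macrophage and monocyte markers summed to 6.73 to 8.63 CPM in Tc22, 5.47 to 15.3 CPM in CoA and 4.97 to 8.26 CPM in Tc0 libraries. These sums overlapped, but of the 5 measured genes Lyz2 (1.15, adjusted p = 0.0117 by edgeR) and Cd14 (2.24, 0.0134) rose with CoA against Tc0. In Tc22 against Tc0 with CoA, Lyz2 (-1.83, 0.00142), Cd14 (-2.58, 0.00564) and Csf1r (-1.60, 0.0421) fell and Cd68 rose (0.72, 0.0271). The largest of these means was 4.87 CPM, for Cd68 in Tc22. The 6 dendritic cell markers summed to 4.36 to 5.85, 5.46 to 9.40 and 3.73 to 5.005 CPM, with Siglech at 0 in every library. Of these, Zbtb46 was higher with CoA than in Tc0 (1.06, adjusted p = 0.0139 by edgeR) and lower in Tc22 than with CoA (-0.95, 0.0149). The 5 natural killer markers summed to at most 2.19 CPM in any library, and Klrb1c was higher in Tc22 than with CoA (1.57, adjusted p = 0.0452). The 6 B cell markers, nearly all of it Ighm, summed to 73.2 to 269 CPM in Tc22, 134 to 208 CPM in CoA and 139 to 389 CPM in Tc0 libraries. The 5 gamma delta markers, mostly Trdc, summed to 131 to 162, 101 to 129 and 136 to 187 CPM, so the CoA sums lay below all others. Trdc was lower with CoA than in Tc0 (-0.52, adjusted p = 0.0420 by edgeR). In Tc22 against Tc0 with CoA, Trdc was higher (0.50, 0.0383), and Tcrg-C2 (-0.56, 0.0405) and Tcrg-C4 (-0.80, 0.0375) were lower. Of the 6 CD8 T cell markers, the receptor complex genes Cd3e, Cd3d, Cd3g and Trac fell with CoA, Cd3e to 61.5 CPM, against 103 CPM in Tc0 (adjusted p = 0.00598 by edgeR). Several of the 9 genes are also used by regulatory T, natural killer, myeloid or B cells, and the part of such cells in the results was not tested. In bulk RNA, fewer cells of a type and less RNA per cell cannot be told apart.

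Per kilobase of exon, Ctla4 was the most abundant of the 9 transcripts in every group. It stood at 76.3 CPM per kb in Tc22 cells, 56.8 in Tc0 cells with CoA and 148 in Tc0 cells. Lag3 came next in Tc22 (29.4 CPM per kb) and in Tc0 (16.8), and Cd200 next with CoA (12.7). In Tc22 cells the order went on with Cd200 (8.21 CPM per kb), Cd160 (5.47), Pdcd1 (3.14), Tigit (2.23), Cd38 (1.995), Tox (1.57) and Havcr2 (0.720). The ranges of neighbours overlapped between Cd200 and Cd160, Cd160 and Pdcd1, Tigit and Cd38, and Cd38 and Tox. With CoA the order after Cd200 was Lag3 (12.1), Cd160 (9.71), Pdcd1 (5.92), Cd38 (3.61), Tigit (2.73), Havcr2 (1.75) and Tox (1.26), with overlap between Cd200 and Lag3, Lag3 and Cd160, Cd38 and Tigit, and Havcr2 and Tox. In Tc0 cells Lag3 was followed by Cd200 (10.4), Cd160 (6.72), Cd38 (5.77), Pdcd1 (3.64), Tox (2.44), Havcr2 (2.27) and Tigit (2.08), and there only Ctla4 from Lag3 and Cd38 from Pdcd1 were neighbours without overlap. Cd38 thus stood higher in the order in Tc0 than in Tc22. Among all genes tested, Ctla4 lay at the 94.4th percentile of mean CPM and Tigit at the 27.3rd.

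**Figure D1:**
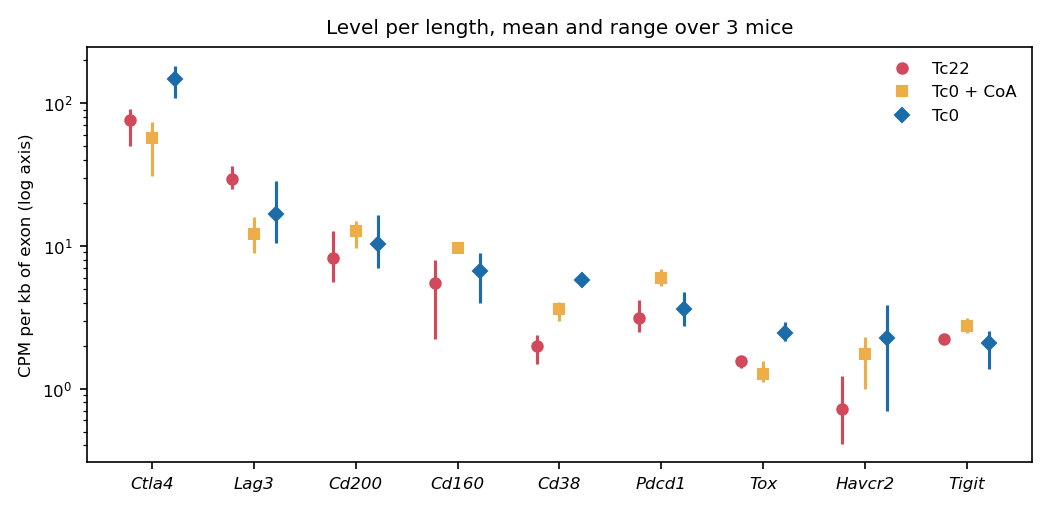
Level per length of the 9 genes. The x axis lists the genes by their mean in Tc0, the y axis gives CPM per kb of exon on a log scale, symbols are means of 3 libraries and lines run from the lowest to the highest library. Ctla4 is at the top in all groups, with 76.3 CPM per kb in Tc22, 56.8 in Tc0 with CoA and 148 in Tc0.

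Against Tc0 cells, Tc22 cells had more Lag3 transcript and less Havcr2, Cd38 and Tox. Of the 9 genes, 1 rose and 3 fell, while 3.68% of all genes tested were called (2.48% higher and 1.21% lower). Lag3 was 1.89-fold of its Tc0 level, Tox 0.650-fold, Cd38 0.345-fold and Havcr2 0.341-fold. The median log2 fold change of the 9 was -0.35, against -0.01 over all genes tested. For Ctla4, Cd38 and Tox every Tc22 library lay below every Tc0 library, as it did for 5.98% of all genes (12.5% did not overlap, 6.55% of all being higher), but Ctla4 did not pass the threshold. Without the mouse term Cd38 alone passed.

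With CoA, Tc0 cells had less Ctla4, Cd38 and Tox. Of the 9 genes, 0 rose and 3 fell, while 24.5% of all genes tested were called (12.5% higher and 12.0% lower), so calls were frequent in this comparison. Ctla4 was 0.385-fold of its level in untreated Tc0 cells, Tox 0.517-fold and Cd38 0.623-fold. The median log2 fold change of the 9 was -0.20, against -0.01 over all genes. Libraries with CoA lay wholly above the Tc0 libraries for Pdcd1 and Cd160 and wholly below for Ctla4, Cd38 and Tox, 5 of 9 genes, against 27.8% of all genes without overlap (14.2% above and 13.6% below). Pdcd1 and Cd160 did not pass by edgeR (adjusted p = 0.0734 and 0.104), and did by DESeq2 (0.0310 and 0.0328). Both comparisons with Tc0 share the same 3 Tc0 libraries.

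Set directly against Tc0 cells with CoA, Tc22 cells had more Lag3 and less Pdcd1, Havcr2, Cd160, Cd200 and Cd38. That is 1 gene higher and 5 lower of 9, while 32.0% of all genes tested were called (16.0% higher and 16.0% lower). Lag3 was 2.47-fold of its level with CoA, and the 5 that fell ranged from 0.391-fold (Havcr2) to 0.601-fold (Cd200). The median log2 fold change of the 9 was -0.74, against 0.01 over all genes. Groups did not overlap for 5 of the 9 genes (Lag3 above, and Pdcd1, Tigit, Cd160 and Cd38 below), against 41.9% of all genes (20.2% above and 21.7% below).

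**Figure D2:**
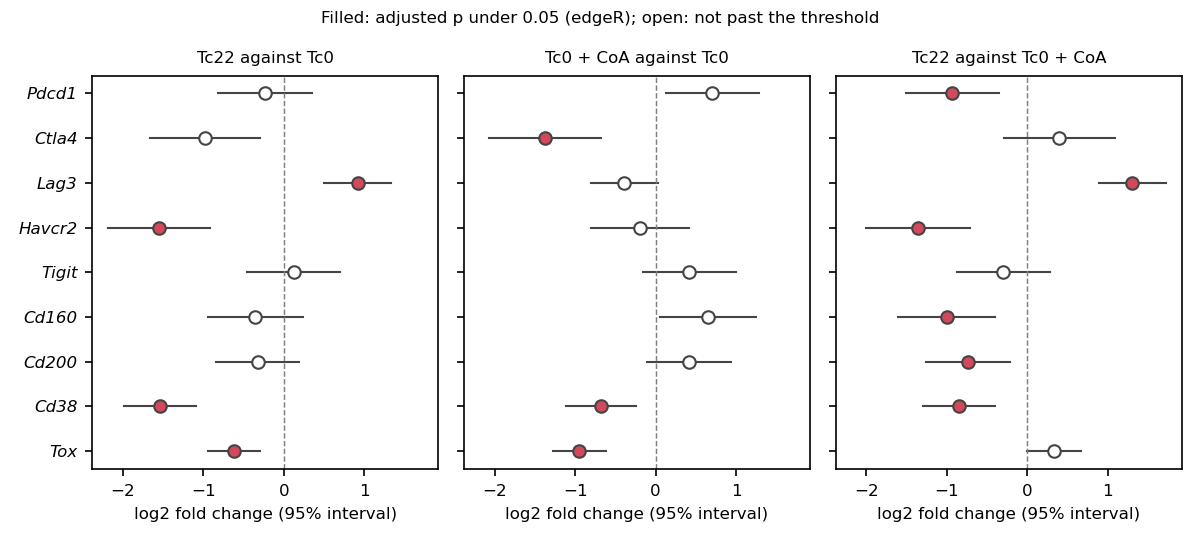
Log2 fold change of each gene (x axis) in 3 comparisons, with points at the estimate, lines for its 95% interval and filled points for an adjusted p under 0.05 by edgeR. Cd38 is left of 0 and filled in all 3 panels, at -1.53, -0.68 and -0.85.

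**Figure D3:**
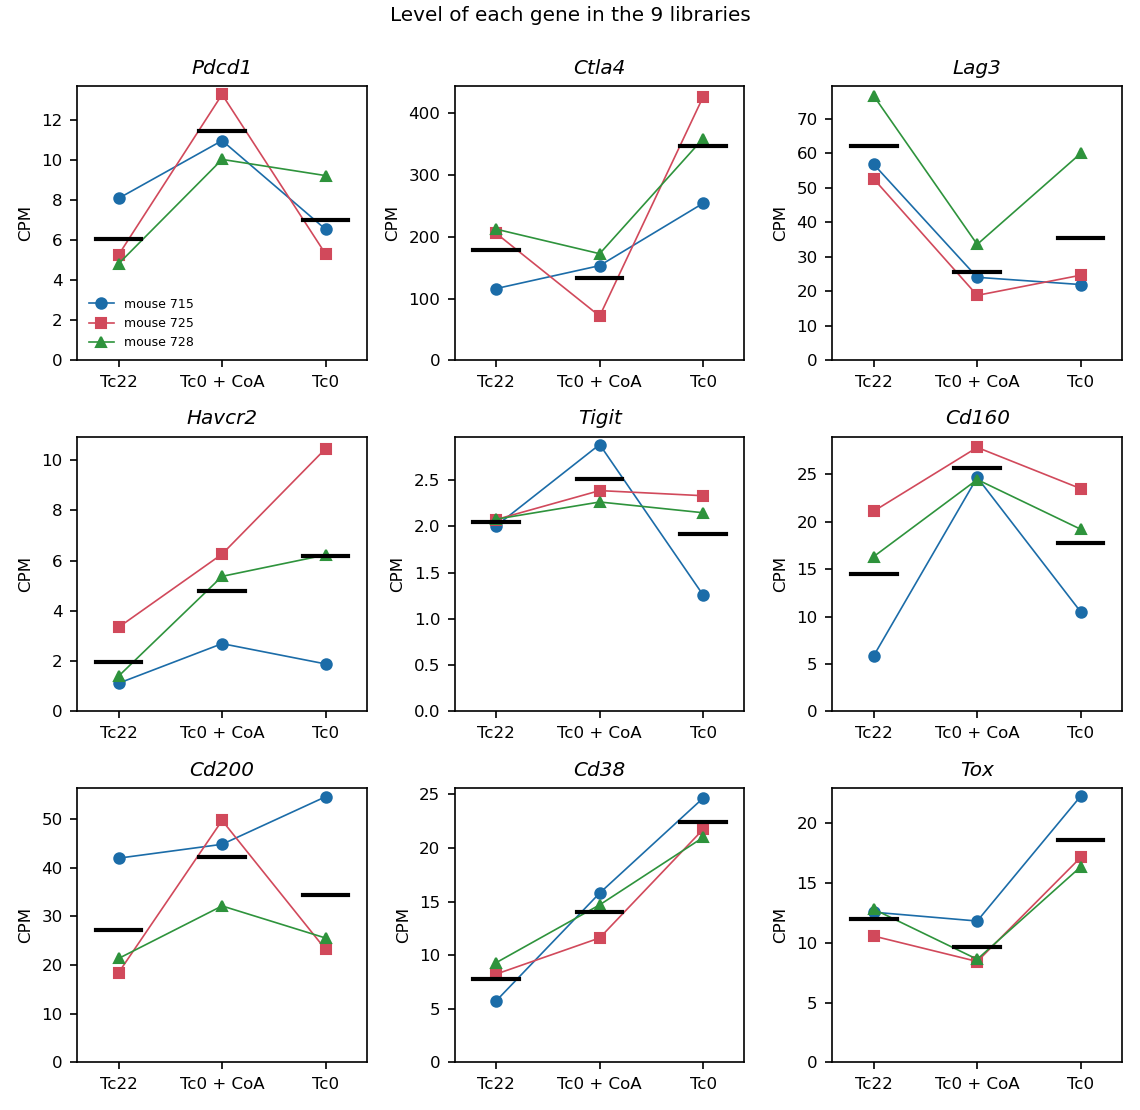
CPM of each gene (y axes, from 0) in the 9 libraries by group (x axes), with 1 colour and symbol per mouse, thin lines joining libraries of a mouse and black bars at group means. Cd38 averages 7.76 CPM in Tc22, 14.0 CPM in Tc0 with CoA and 22.5 CPM in Tc0, with no overlap between groups, and the Tc0 library of mouse 728 stands apart for Lag3 at 59.9 CPM.

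Promoter sequences are given for the genes that fell against Tc0 and have an entry among the RefSeq promoters (GRCm38.p6), which hold 7 of the 9 genes. Each runs 5′ to 3′ on the gene's strand from 250 bases before to 50 bases after the start site, and capitals mark matches to any of 5 short motifs searched on both strands: the NFAT core GGAAA, AP-1 TGANTCA, the STAT palindrome TTCNNNGAA, the NR4A monomer site AAAGGTCA and the aryl hydrocarbon receptor core GCGTG. NFAT and AP-1 factors carry antigen receptor signals to such genes.
Cd38, chr5:43868559-43868858, plus strand: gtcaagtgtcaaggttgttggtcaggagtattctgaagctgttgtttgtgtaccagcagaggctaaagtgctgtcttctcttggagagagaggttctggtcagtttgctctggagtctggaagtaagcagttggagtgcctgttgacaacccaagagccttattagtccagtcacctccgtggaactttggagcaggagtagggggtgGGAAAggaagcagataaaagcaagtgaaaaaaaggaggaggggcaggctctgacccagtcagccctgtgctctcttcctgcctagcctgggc
Ctla4, chr1:60908775-60909074, plus strand: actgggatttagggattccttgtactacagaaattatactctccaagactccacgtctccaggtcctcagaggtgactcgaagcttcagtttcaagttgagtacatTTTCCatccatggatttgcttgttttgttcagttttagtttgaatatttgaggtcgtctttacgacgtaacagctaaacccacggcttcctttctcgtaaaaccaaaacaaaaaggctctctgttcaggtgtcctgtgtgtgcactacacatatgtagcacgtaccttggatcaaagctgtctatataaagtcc
Havcr2, chr11:46454681-46454980, plus strand: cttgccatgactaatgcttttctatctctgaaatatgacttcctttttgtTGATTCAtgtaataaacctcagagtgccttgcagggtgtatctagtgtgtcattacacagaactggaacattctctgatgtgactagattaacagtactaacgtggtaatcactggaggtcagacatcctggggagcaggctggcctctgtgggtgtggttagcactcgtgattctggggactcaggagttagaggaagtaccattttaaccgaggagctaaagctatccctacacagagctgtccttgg
Cd38 held 1 NFAT core at position -42 and Ctla4 1 on the opposite strand at position -144, counted from the start site to the leftmost base. Havcr2 held 1 match to the AP-1 pattern TGANTCA at position -200, with T at the centre, where the pattern takes any base. NFAT cores occur in 61.3% of all 32851 promoters of this length, AP-1 motifs in 7.81%, STAT palindromes in 8.30%, NR4A sites in 1.51% and the receptor core in 32.4%. None of the last 3 motifs matched in these 3 windows. A match is a string of letters and says nothing of binding in these cells.

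Ctla4 (ENSMUSG00000026011, chromosome 1, 60887000 to 60915832, plus strand, GRCm38) encodes the receptor that takes CD80 and CD86 from CD28. Its levels in mice 715, 725 and 728 were 116, 205 and 212 CPM in Tc22 cells, 153, 71.6 and 172 CPM in Tc0 cells with CoA and 254, 426 and 358 CPM in Tc0 cells. Every Tc0 library thus held more Ctla4 than any other library, and the CoA library of mouse 725 held least. With CoA it fell, at -1.38 on the log2 scale (SE 0.31, adjusted p = 0.0134 by edgeR), and the 3 mice gave -0.73, -2.55 and -1.05 on the log2(CPM + 1) scale. Leaving out Tc0 of mouse 725 ended this call (adjusted p = 0.0588), and so did robust variance estimates (0.05055). With CoA of mouse 725 left out the value was -0.90 and passed (0.0107). In Tc22 against Tc0 the value was -0.98 (SE 0.30, 95% interval -1.66 to -0.30, adjusted p = 0.121), lower in 3 of 3 mice. It passed in 3 of 16 alternatives: without the low-count filter (0.000713), with only the groups compared (0.005163) and without CoA of mouse 725 (0.00298). It was -0.65 with Tc0 of mouse 725 left out (0.525) and -0.76 with Tc22 of mouse 715 left out (0.429), and adjusted p was 0.196 by DESeq2 and 0.377 without the mouse term. Tc22 cells and Tc0 cells with CoA did not differ past the threshold (0.40, 95% interval -0.29 to 1.09, adjusted p = 0.357).

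Pdcd1 (ENSMUSG00000026285, chromosome 1, 94038305 to 94052553, minus strand) encodes PD-1. It stood at 8.09, 5.27 and 4.83 CPM in Tc22 cells, 11.0, 13.3 and 10.0 CPM in Tc0 cells with CoA and 6.55, 5.32 and 9.22 CPM in Tc0 cells. The CoA libraries were the 3 highest, and Tc22 and Tc0 libraries overlapped. Tc22 cells had less than Tc0 cells with CoA (-0.94, SE 0.26, adjusted p = 0.0217 by edgeR), lower in 3 of 3 mice. This call was lost without the Tc22 library of mouse 725 or 728 or the CoA library of mouse 725 (adjusted p = 0.109, 0.0801 and 0.118) and without the mouse term (0.0511). With CoA against Tc0 the value was 0.71 (95% interval 0.13 to 1.28, adjusted p = 0.0734), higher in 3 of 3 mice. It was 1.07 and passed with Tc0 of mouse 728 left out (0.0165), but 0.448 without CoA of mouse 725 (0.324) and 0.50 with Tc0 of mouse 725 left out (0.318). In Tc22 against Tc0 it was -0.23 (95% interval -0.81 to 0.35, adjusted p = 0.632).

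Lag3 (ENSMUSG00000030124, chromosome 6, 124904361 to 124911705, minus strand) encodes a CD4-related receptor for MHC class II. It reached 56.8, 52.5 and 76.6 CPM in Tc22 cells, 24.1, 18.8 and 33.6 CPM in Tc0 cells with CoA and 21.97, 24.7 and 59.9 CPM in Tc0 cells. Tc22 libraries lay above all CoA libraries. They lay above the Tc0 libraries of mice 715 and 725 but not wholly above that of mouse 728, so Tc22 and Tc0 overlapped. Lag3 rose in Tc22 against Tc0 (0.92, SE 0.19, adjusted p = 0.0274 by edgeR), with 1.33, 1.06 and 0.35 in the 3 mice on the log2(CPM + 1) scale. That call was lost when the Tc22 library of mouse 715 or 725 was left out (adjusted p = 0.127 and 0.151), likewise Tc0 of mouse 715 or 725 (0.0967 and 0.134), and without the mouse term (0.558). Against Tc0 with CoA the rise was 1.31 (SE 0.19, adjusted p = 0.00144), and it passed under all 16 alternative settings (adjusted p at most 0.04999). With CoA against Tc0 the value was -0.39 (95% interval -0.81 to 0.03, adjusted p = 0.159). It was -0.61 and passed with Tc0 of mouse 715 left out (adjusted p = 0.0352), and -0.097 with Tc0 of mouse 728 left out (0.626).

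Havcr2 (ENSMUSG00000020399, chromosome 11, 46454935 to 46481255, plus strand) encodes TIM-3, a receptor of effector T cells that myeloid cells also carry. It was scarce, at 1.12, 3.35 and 1.41 CPM in Tc22 cells, 2.70, 6.26 and 5.37 CPM in Tc0 cells with CoA and 1.89, 10.4 and 6.22 CPM in Tc0 cells, from 33 to 226 counts per library. Mouse 725 had the most and mouse 715 the least in each group, so groups overlapped while the order within each mouse put Tc22 lowest. Havcr2 fell in Tc22 against Tc0 (-1.55, SE 0.28, adjusted p = 0.0170 by edgeR) and against Tc0 with CoA (-1.36, SE 0.29, adjusted p = 0.00697), each in 3 of 3 mice. The first call was lost when Tc22 of mouse 725 or 728, or Tc0 of mouse 725, was left out (adjusted p = 0.0813, 0.05195 and 0.115). Both calls were lost when the mouse term was dropped (0.4155 and 0.189). With CoA against Tc0 the value was -0.20 (95% interval -0.80 to 0.41, adjusted p = 0.635). The myeloid genes Lyz2, Cd14 and Csf1r also fell in Tc22 against Tc0 with CoA. Of the same marker list, Cd68 rose (0.72, adjusted p = 0.0271 by edgeR) and Itgam did not pass (-0.04, 0.918). The part of myeloid cells in the fall of Havcr2 was not tested.

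Tigit (ENSMUSG00000071552, chromosome 16, 43648867 to 43664146, minus strand) encodes a receptor that competes with CD226 for the poliovirus receptor. It stood at 2.01, 2.07 and 2.08 CPM in Tc22 cells, 2.88, 2.39 and 2.26 CPM in Tc0 cells with CoA and 1.26, 2.33 and 2.15 CPM in Tc0 cells. These levels rest on 40 to 78 counts per library. Tigit passed in no comparison, and its log2 fold changes were 0.12 in Tc22 against Tc0 (95% interval -0.46 to 0.70), 0.42 with CoA against Tc0 (-0.16 to 1.004) and -0.30 in Tc22 against Tc0 with CoA (-0.87 to 0.28). The adjusted p-values were 0.815, 0.269 and 0.404 by edgeR.

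Cd160 (ENSMUSG00000038304, chromosome 3, 96798763 to 96829351, minus strand) encodes a receptor for HVEM (Tnfrsf14) on cytotoxic lymphocytes. It stood at 5.88, 21.1 and 16.3 CPM in Tc22 cells, 24.7, 27.8 and 24.5 CPM in Tc0 cells with CoA and 10.5, 23.5 and 19.2 CPM in Tc0 cells. The CoA libraries were close together and the highest, while mouse 715 was low in both other groups. Tc22 cells had less than Tc0 cells with CoA (-1.001, SE 0.27, adjusted p = 0.0196 by edgeR), a call lost when Tc22 of mouse 715 was left out (-0.64, adjusted p = 0.0812) or the mouse term dropped (0.209). With CoA of mouse 715 left out it passed at a smaller value (-0.587, adjusted p = 0.0329). With CoA against Tc0 the value was 0.65 (95% interval 0.05 to 1.24, adjusted p = 0.104), higher in 3 of 3 mice, and 0.214 with CoA of mouse 715 left out (0.421). In Tc22 against Tc0 it was -0.35 (95% interval -0.95 to 0.24, adjusted p = 0.455). Its exons share 68 bases with Pdzk1 on the opposite strand, which had 18 counts over all libraries, against 4904 for Cd160.

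Cd200 (ENSMUSG00000022661, chromosome 16, 45382135 to 45409053, minus strand) encodes a membrane glycoprotein whose receptor restrains myeloid cells. It stood at 41.9, 18.5 and 21.4 CPM in Tc22 cells, 44.8, 49.7 and 32.1 CPM in Tc0 cells with CoA and 54.5, 23.2 and 25.5 CPM in Tc0 cells. Mouse 715 was highest in Tc22 and Tc0, mouse 725 was highest with CoA, and all groups overlapped. In Tc22 against Tc0 with CoA it fell (-0.74, SE 0.23, adjusted p = 0.0378 by edgeR), with -0.09, -1.38 and -0.57 in the 3 mice on the log2(CPM + 1) scale. Leaving out any of the 3 Tc22 libraries, CoA of mouse 725 or 728 or Tc0 of mouse 728 ended this call (adjusted p from 0.05215 to 0.210), and with CoA of mouse 725 left out the value was -0.35. Dropping the mouse term (0.300) or fitting only the groups compared (0.0534) ended it too. Neither comparison with Tc0 passed, at -0.33 for Tc22 (95% interval -0.84 to 0.19, adjusted p = 0.429) and 0.41 for CoA (-0.11 to 0.93, adjusted p = 0.230). The CoA value depended on single libraries: it was 0.74 and passed without CoA of mouse 715 (0.0226), 0.025 without CoA of mouse 725 (0.949) and 0.21 with Tc0 of mouse 725 left out (0.659).

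Cd38 (ENSMUSG00000029084, chromosome 5, 43868553 to 43912375, plus strand) encodes an ectoenzyme that degrades NAD. Its levels were 5.74, 8.24 and 9.30 CPM in Tc22 cells, 15.8, 11.6 and 14.7 CPM in Tc0 cells with CoA and 24.6, 21.7 and 21.0 CPM in Tc0 cells. No group overlapped another, a pattern of separate groups that 3.21% of all genes tested shared. Cd38 fell in Tc22 against Tc0 (-1.53, SE 0.20, adjusted p = 0.00365 by edgeR), in 3 of 3 mice and under all 16 alternative settings (adjusted p at most 0.0203). With CoA against Tc0 it fell, at -0.68 (SE 0.19, adjusted p = 0.0303), again in 3 of 3 mice. That call was lost when CoA of mouse 725 or 728 was left out (adjusted p = 0.151 and 0.113), likewise Tc0 of mouse 715 or 725 (0.125 and 0.112), and without the mouse term (0.0685). Tc22 cells had less than Tc0 cells with CoA (-0.85, SE 0.20, adjusted p = 0.0109), lost only without the CoA library of mouse 728 (0.0501) among the 16 settings. Macrophages and B cells also carry CD38. With CoA against Tc0, the macrophage genes Lyz2 and Cd14 rose, and Csf1r, Cd68 and Itgam did not pass. In Tc22 against Tc0 with CoA, Lyz2, Cd14 and Csf1r fell, Cd68 rose and Itgam did not pass. The B cell marker sum averaged 198 CPM in Tc22, 177 CPM with CoA and 284 CPM in Tc0 libraries, with overlap. Of the 2 measured B cell genes, 0 were called in any comparison. The part of such cells was not tested.

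Tox (ENSMUSG00000041272, chromosome 4, 6686353 to 6991557, minus strand) encodes the DNA-binding factor that maintains exhausted CD8+ T cells. It stood at 12.5, 10.5 and 12.8 CPM in Tc22 cells, 11.8, 8.43 and 8.61 CPM in Tc0 cells with CoA and 22.2, 17.1 and 16.3 CPM in Tc0 cells. All Tc0 libraries lay above all others. Tox fell with CoA, at -0.95 on the log2 scale (SE 0.15, adjusted p = 0.00368 by edgeR), and the 3 mice gave -0.86, -0.94 and -0.85 on the log2(CPM + 1) scale. This fall passed under all 16 alternative settings (adjusted p at most 0.0276). In Tc22 against Tc0 the fall was -0.62 (SE 0.15, adjusted p = 0.0485), just past the threshold, in 3 of 3 mice. It passed under 6 of 16 alternatives. Adjusted p was 0.318 and 0.242 without the Tc22 library of mouse 715 or 725, 0.214 and 0.230 with Tc0 of mouse 715 or 725 left out, and 0.0507 and 0.0911 without the CoA library of mouse 725 or 728. Without the mouse term it was 0.283. Tc22 cells and Tc0 cells with CoA differed by 0.33 (95% interval -0.00 to 0.66, adjusted p = 0.116). Tox2 and Tox3, its relatives, did not pass the low-count filter, and Tox4 was called in neither comparison with Tc0.

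Genes around the receptors were followed in 7 lists, given here for Tc22 against Tc0, where 3.68% of all genes were called. Of 13 measured ligand and counter-receptor genes 1 rose and 1 fell: Cd200r1, the receptor for CD200 (1.02, adjusted p = 0.0284 by edgeR), and Cd86, a ligand of CTLA-4 and CD28 (-1.37, 0.0335). Of 9 costimulatory receptors 3 rose and 1 fell, led by Tnfrsf4, which encodes OX40 (1.03, 0.00308), and Tnfrsf18, which encodes GITR (1.01, 0.0179). Cd226, the activating counterpart of TIGIT, was the one that fell (-0.76, 0.0233). Of 11 other inhibitory receptors 1 rose, Lilrb4a, an immunoglobulin-like receptor (1.96, 0.000801), and 0 fell. Of 19 signalling genes 0 rose and 3 fell, first Sh2d1a, the SAP adaptor (-0.83, 0.00450), and Cblb, a ubiquitin ligase that restrains T cell activation (-0.82, 0.0129). Of 16 trafficking and turnover genes 1 rose and 2 fell. The one that rose was Trat1, an adaptor that helps bring CTLA-4 to the surface (1.92, 0.00507), and Lax1, another adaptor, fell (-0.87, 0.0313). Of 20 TOX family and exhaustion factors 0 rose and 4 fell, first Eomes, an effector and memory factor (-2.30, 0.000119), and Nr4a3, an early response factor (-1.73, 0.00222). Of 25 NAD and adenosine genes 1 rose, P2rx7, the ATP-gated channel (1.78, 0.00450), and 0 fell.

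Single libraries moved these list counts in Tc22 against Tc0. The lowest values came without the Tc22 or the Tc0 library of mouse 725, at 0 ligands, 1 costimulatory receptor, 1 other inhibitory receptor, 1 signalling gene, 1 trafficking gene, 2 factors and 1 NAD gene. The highest came without the Tc0 library of mouse 728, at 4, 4, 2, 8, 7, 5 and 4 genes. Calls over all genes moved too, from 565 with every library to 201 without Tc22 of mouse 725. They were 207 without Tc0 of mouse 725 and 2669 of 15696 tested without Tc0 of mouse 728. Lilrb4a, Sh2d1a, Trat1 and Eomes passed under all 16 alternatives, and Tnfrsf4, Nr4a3 and P2rx7 lost their calls only without the mouse term. Cd200r1, Cd86, Tnfrsf18, Cd226 and Lax1 lost theirs without the mouse term too. With single libraries left out, adjusted p reached 0.144 for Cd200r1, 0.207 for Cd86, 0.109 for Tnfrsf18, 0.138 for Cd226, 0.0949 for Cblb and 0.179 for Lax1.

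With CoA against Tc0, where 24.5% of all genes were called, ligand genes moved both ways. Of 13 measured ligand and counter-receptor genes 3 rose and 2 fell, first Cd80, a ligand of CTLA-4 and CD28 (1.25, adjusted p = 0.00821 by edgeR), and Cd274, which encodes PD-L1 (0.85, 0.00947), while Pecam1 and Lgals9 fell. Myeloid cells express Cd80 and Cd274 too. In the same comparison the myeloid genes Lyz2 (1.15, 0.0117) and Cd14 (2.24, 0.0134) and the dendritic cell gene Zbtb46 (1.06, 0.0139) rose. The other measured genes of those marker lists, Csf1r, Cd68, Itgam, Flt3, Itgax and Xcr1, did not pass. The part of such cells in these changes was not tested. Of 9 costimulatory receptors 1 rose and 3 fell: Cd28 itself fell (-0.90, 0.00496), and Tnfrsf4 rose (0.64, 0.00854). Cd28 stood at 197, 175 and 194 CPM with CoA, against 297, 463 and 320 CPM in Tc0 cells, with no overlap. Of 11 other inhibitory receptors 1 rose and 2 fell, first Lair1, a collagen receptor (-1.42, 0.0120), and Cd244a (-1.20, 0.0177). Of 19 signalling genes 0 rose and 5 fell, first Ptpn22, a phosphatase of proximal receptor signalling (-0.80, 0.00738), and Pag1 (-0.59, 0.0230). Of 16 trafficking and turnover genes 1 rose and 1 fell, Mgat5, a glycosyltransferase (0.42, 0.0454), and Cmtm4 (-0.37, 0.0459). Of 25 NAD and adenosine genes 1 rose and 4 fell, first Nt5e and Entpd1, whose products CD73 and CD39 make adenosine outside the cell (-1.64, 0.00329 and -1.33, 0.0103).

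The factor list moved both ways with CoA: of 20 measured genes 6 rose and 6 fell. Over all genes tested, 24.5% were called in this comparison (12.5% higher and 12.0% lower). Nr4a3 and Nr4a1, early response factors that antigen receptor signals induce, rose (1.62, adjusted p = 0.00154 and 1.74, 0.00218 by edgeR). Nr4a3 stood at 59.4, 62.3 and 37.6 CPM with CoA, against 25.9, 15.2 and 12.4 CPM in Tc0 cells. The other factors that rose were Nr4a2, Eomes, Batf and Irf4, and those that fell were Prdm1, Id3, Maf, Myb, Nfatc1 and Nfatc3. Tox and 3 NR4A genes thus went in opposite directions with CoA. All list counts were lowest without the Tc0 library of mouse 725, at 0 ligands, 2 costimulatory receptors, 0 other inhibitory receptors, 1 signalling gene, 0 trafficking genes, 8 factors and 1 NAD gene. Without the CoA library of mouse 715 they were higher, at 7 ligands, 7 costimulatory receptors, 7 other inhibitory receptors, 4 trafficking genes, 14 factors and 8 NAD genes, and without the Tc0 library of mouse 728 there were 9 signalling genes. Calls over all genes were 3763 with every library and 1160 without Tc0 of mouse 725. They were 4356 without CoA of mouse 715 and 3982 without Tc0 of mouse 728. Cd28, Ptpn22, Nr4a3, Nr4a1 and Nt5e passed under all 16 alternatives. Without the mouse term, Cd80 (adjusted p = 0.358 by edgeR), Pecam1, Lgals9, Tnfrsf4, Pag1, Mgat5, Cmtm4 and Entpd1 lost their calls. Cmtm4 passed under only 3 of 16 alternatives. With single libraries left out, adjusted p reached 0.0523 for Cd80, 0.0600 for Cd274, 0.0567 for Pecam1, 0.106 for Lgals9, 0.0536 for Tnfrsf4, 0.0570 for Lair1, 0.0917 for Cd244a, 0.128 for Pag1, 0.245 for Mgat5, 0.204 for Cmtm4 and 0.0549 for Entpd1.

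**Figure D4:**
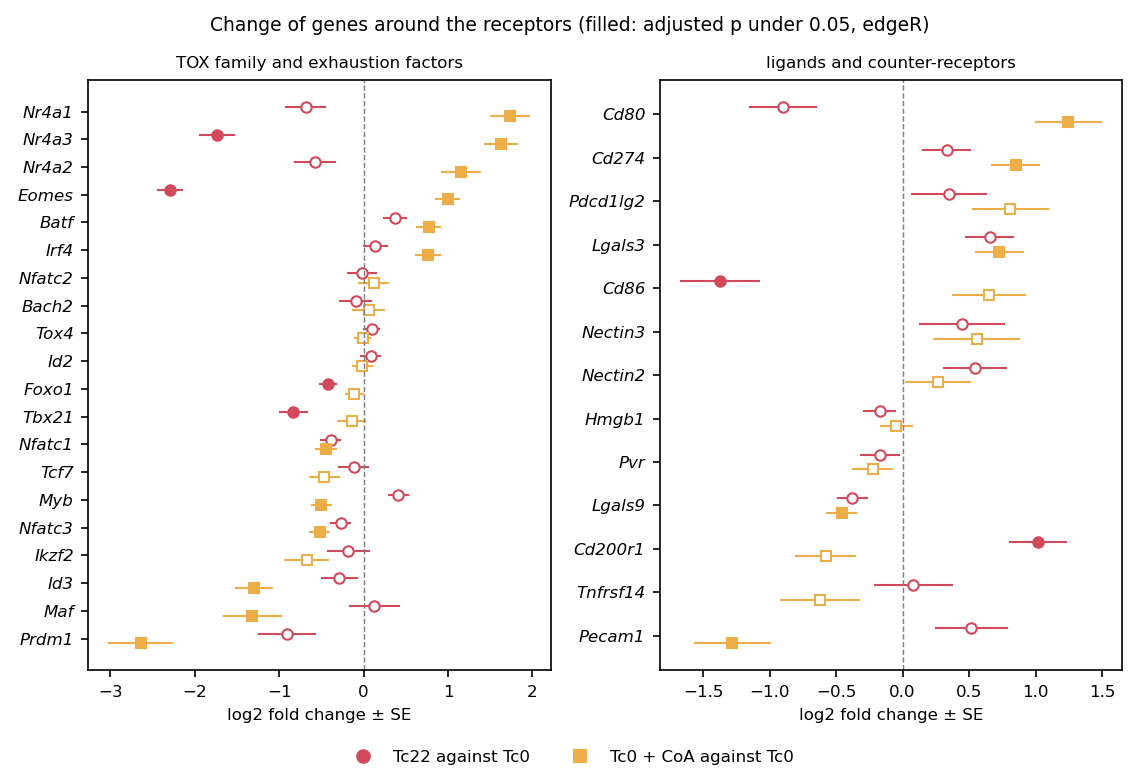
Log2 fold change with its SE (x axes) of 20 TOX family and exhaustion factors (left) and 13 ligands and counter-receptors (right), for Tc22 against Tc0 (circles) and Tc0 with CoA against Tc0 (squares), filled where the adjusted p was under 0.05. Eomes and Nr4a3 lie at -2.30 and -1.73 in Tc22 and at 0.996 and 1.62 with CoA, and both comparisons share the Tc0 libraries.

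Tc22 cells and Tc0 cells with CoA, which both carried more Il22 than Tc0 cells, were also set against each other. Of 20 measured factors 4 rose and 8 fell in Tc22 against Tc0 with CoA, where 32.0% of all genes were called. Eomes (-3.29, adjusted p = 1.44e-05 by edgeR) and Nr4a3 (-3.36, 9.24e-05) had the smallest p. Eomes stood at 3.33, 5.96 and 3.74 CPM in Tc22 cells, against 37.4, 48.0 and 39.4 CPM with CoA, far apart in every mouse. Of 13 ligand and counter-receptor genes 2 rose and 3 fell, first Cd80 (-2.15, 0.000664) and Cd200r1 (1.60, 0.00115). Lyz2, Cd14, Csf1r and Zbtb46 fell alongside Cd80, while Cd68 rose (0.72, 0.0271). The other measured macrophage and dendritic cell markers, Itgam, Flt3, Itgax and Xcr1, did not pass. The part of myeloid cells was not tested. Of 9 costimulatory receptors 5 rose and 1 fell, first Slamf6 (1.53, 0.00836) and Cd2 (0.45, 0.0157), and of 11 other inhibitory receptors 5 rose and 1 fell, first Lilrb4a (1.28, 0.00131) and Cd244a (1.45, 0.00563). Of 19 signalling genes 3 rose and 4 fell, first Sh2d1a (-0.74, 0.00201) and Ptpn11, which encodes the phosphatase SHP-2 that PD-1 recruits (-0.48, 0.00494). Of 16 trafficking genes 4 rose and 1 fell, first Trat1 (2.31, 0.000766) and Mgat5 (-0.81, 0.00239). Of 25 NAD and adenosine genes 5 rose and 2 fell, first P2rx7 (1.91, 0.00104) and Nmrk1, a nicotinamide riboside kinase gene (-0.81, 0.00380). The counts were lowest without the Tc22 library of mouse 725, at 7 factors, 4 ligands, 1 costimulatory and 2 other inhibitory receptors, 2 signalling, 2 trafficking and 3 NAD genes. The highest counts were 13 signalling, 7 trafficking and 8 NAD genes without the Tc0 library of mouse 728, and 13 factors and 9 other inhibitory receptors without the CoA library of mouse 715. Calls over all genes were 4913 with every library and 2185 without Tc22 of mouse 725. They were 5913 without Tc0 of mouse 728 and 5297 without CoA of mouse 715. The calls of Slamf6 without the CoA library of mouse 728 (adjusted p = 0.0526) and of Cd2 without the Tc22 library of mouse 725 or 728 or the CoA library of mouse 725 (up to 0.110) were lost. Without the mouse term, Cd80 (adjusted p = 0.0734 by edgeR) and Cd2 lost their calls.

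For each of the 8 genes called in any comparison, the genes with the most similar profile were found by Pearson's r over the 9 libraries, after the mean of each mouse was taken off log2(CPM + 1), among 9262 candidates at 5 CPM or more. The 9 libraries come from 3 mice and the r values are a description of the top of many. Cd38 was closest to Pdlim5 (0.99), Ogfrl1 (0.99) and Fut8 (0.98), and Tox to Lsm14a (0.997), Ncor1 (0.99) and Tesk2 (0.98). Ctla4 was closest to Rasgrp1 (0.99), Kif14 (0.98) and Pon2 (0.98), and Lag3 to Rcn3, Sh3pxd2a and Pgp (0.99 each). Havcr2 was closest to Tmem181b-ps (0.98), Iigp1 (0.97) and Tbc1d4 (0.96). For Pdcd1 the closest were Atf6b, Ankrd52 and Zfp512b (0.99 each), for Cd160 Ccdc93 (0.97), Gpatch2 (0.96) and Tmbim4 (0.95), and for Cd200 Pigb (0.99), Mettl25 (0.99) and Atxn2 (0.98). Fut8, which encodes a fucosyltransferase, also stood in the trafficking list and fell in Tc22 against Tc0 (-0.81, adjusted p = 0.0316 by edgeR, up to 0.153 with single libraries left out). Its call was lost without the mouse term.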

How the data were processed

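Per the labels' protocols, RNA of activated CD8+ T cells was freed of ribosomal RNA and made into stranded libraries with random primers, then sequenced as paired ends of 100 cycles. The authors deposited whole-number gene counts, in 1 table and in 9 single files that did not differ from it. Per the submitters' processing notes, the tools included STAR (2.5.2) with RSEM (1.3.0), on GRCm38 and mm10. RSEM estimates need not be whole, so rounding before deposit is possible. The sources used here give neither strand setting nor annotation, so reads of overlapping genes may be shared.

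Symbols and exon lengths came from GENCODE M21 (GRCm38). The counts were fitted with edgeR 4.0.16 (R 4.3.3; quasi-likelihood F test, TMM scaling, filterByExpr, group and mouse as terms, 9 libraries, 4 residual degrees of freedom), with Benjamini-Hochberg adjustment over 15348 genes and a threshold of 0.05. CPM use TMM-scaled library sizes. SE is the absolute log2 fold change over the square root of F. The design text states that every mouse gave all groups, so mouse was a block. Deviations from group means correlated at 0.07 to 0.76 within mice (9 pairs). Between libraries of different mouse and group they correlated at -0.70 to 0.32 (18 pairs), so the ranges overlapped. Because deviations cancel within each group, the second set of values is tied to the first and is no independent reference for pairing. P-values set each difference against the spread left in all 9 libraries of 3 animals after the group and mouse terms. edgeR moderates that spread with information from other genes, so it is not only the spread of 1 gene's differences over the 3 animals. DESeq2 1.42.0 served as an alternative.

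The genes and lists were chosen with earlier results of these data known, and no test was run on a list. The text names all 9 genes, and, of up to 4 genes per list and comparison that the rule takes by p, mostly the first 2. Cd226, Fut8, Pecam1 and Lgals9 (within those 4), and the factors and cell type markers named, were added after their values were seen.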

Additional observations from a re-analysis of the deposited data

How the results depend on the processing

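Of 432 recomputed log2 fold changes of the 9 genes (16 alternatives in 3 comparisons), 376 kept direction and side of the threshold, 42 lost their call, 10 gained one and 4 changed sign, none of the 4 called. With single libraries left out, Pdcd1 in Tc22 against Tc0 ranged from -0.510 to 0.133 (the sign changed without Tc0 of mouse 728) and Tigit from -0.164 to 0.293 (without Tc0 of mouse 715, -0.164). Ctla4 in Tc22 against the CoA group ranged from -0.0698 to 0.812, and Havcr2 with CoA against Tc0 from -0.483 to 0.0699, both changing sign without CoA of mouse 725. Without the mouse block, calls among the 9 were 1 in Tc22 against Tc0 and 2 in Tc22 against the CoA group (4 and 6 with it), and calls over all genes were 120 in Tc22 against Tc0, 1462 with CoA against Tc0 and 2097 between Tc22 and the CoA group, against 565, 3763 and 4913 with mouse pairing. In Tc22 against Tc0, DESeq2 called 4 of the 9 and 937 genes in all, and edgeR without the low-count filter 5 and 1275. With CoA against Tc0, DESeq2 called 5 of the 9 and 3736 genes in all, and edgeR without that filter 5 and 4240. With single libraries left out, calls among the 9 ranged from 1 to 4 in Tc22 against Tc0, 1 to 4 with CoA against Tc0 and 4 to 6 between Tc22 and the CoA group, and calls over all genes from 201 to 2669, 1160 to 4356 and 2185 to 5913. The cause was not tested. Havcr2 rested on 33 to 226 counts and Tigit on 40 to 78 per library, with SEs of 0.27 to 0.29 and 0.26. The SE of Ctla4 was 0.30 to 0.31. edgeR moderates the spread behind these SEs with information from other genes, so they do not gauge the effect of low counts.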
